A study of Mus musculus with 32 samples.

Results

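The comparison of the zygote with the 2-cell mouse embryo covered 7291 of the 24013 genes in the stage table. A gene was kept when it reached 5 FPKM or more in either stage, where FPKM counts fragments scaled to transcript length and to the size of the library. The size of a change was the 2-cell value minus the zygote value on the log2(FPKM + 1) scale, and a gene was called higher or lower at a difference of 1 or more in either direction, which is 2-fold on FPKM + 1. The series measured polyadenylated RNA of mouse oocytes, embryos and embryonic stem cells in 32 samples, of which 4 were used for the main comparison, 2 labelled zygote and 2 labelled 2-cell. Both groups came from superovulated C57BL/6N females, given pregnant mare serum gonadotrophin and then human chorionic gonadotrophin, that were mated to DBA/2N males, so the embryos were crosses of the strains. The zona pellucida was removed before lysis and libraries were made with a modified Smart-Seq2 protocol. The labels give neither the number of embryos in a sample nor hours after hormone injection, and they name an early 2-cell stage apart from the 2-cell stage.

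The 2 samples of a stage share 1 deposited column, so each gene had 1 value per stage, with no spread and no test, and every statement here describes those columns. A level in FPKM is a share of the library: the embryo's total messenger RNA was not measured, so a gene whose amount per embryo stayed the same can take a larger share when others are lost. Fewer transcripts and shorter poly(A) tails cannot be told apart in a library built from polyadenylated RNA.

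A mouse zygote lives on messenger RNA made in the growing oocyte. The embryo begins to transcribe its own genome weakly in the late zygote and strongly in the 2-cell embryo, and over the same period much of the maternal RNA is deadenylated and degraded. Some maternal messengers are stored with short tails and are lengthened and translated only after meiosis resumes or after fertilization.

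The promoters of genes from the groups described here differed in sequence. The 150 bases before the annotated start are shown, taken from RefSeq on GRCm38.p6 and written 5′ to 3′ on the gene's strand, with Vimp listed there under its current symbol, Selenos. Capitals mark 4 core promoter motifs found on either strand: the TATA box, spelled TATAAA, the box named for its letters CCAAT, the GC box, spelled GGGCGG, and the site of ETS family factors, spelled CCGGAA. Rps2 and Rps3 encode ribosomal proteins, Gabpa an ETS family factor, Vimp a selenoprotein of the endoplasmic reticulum and Prps1 an enzyme of nucleotide synthesis, and all were higher at 2-cell. Rgs2, a regulator of G-protein signalling, had the largest negative difference among named genes. Zscan4d and Zfp352 encode zinc finger proteins known for their expression in the 2-cell embryo. Oog4, Nlrp4f and Bmp15 are oocyte genes and were lower at 2-cell.
Rps2, chr17:24719913-24720062, plus strand: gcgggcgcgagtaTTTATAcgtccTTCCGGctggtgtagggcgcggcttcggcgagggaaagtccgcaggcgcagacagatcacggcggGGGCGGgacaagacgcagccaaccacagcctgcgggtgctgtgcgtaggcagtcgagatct
Rps3, chr7:99483710-99483859, minus strand: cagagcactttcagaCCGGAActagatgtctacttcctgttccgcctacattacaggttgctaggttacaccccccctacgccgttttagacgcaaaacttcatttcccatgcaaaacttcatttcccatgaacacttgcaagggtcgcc
Gabpa, chr16:84834974-84835123, plus strand: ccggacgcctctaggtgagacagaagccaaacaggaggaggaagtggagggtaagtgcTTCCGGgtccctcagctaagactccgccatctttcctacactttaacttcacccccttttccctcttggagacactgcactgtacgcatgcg
Vimp, chr7:66079499-66079648, plus strand: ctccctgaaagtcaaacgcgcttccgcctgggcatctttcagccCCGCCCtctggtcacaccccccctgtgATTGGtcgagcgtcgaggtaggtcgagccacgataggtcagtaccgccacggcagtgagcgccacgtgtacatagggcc
Prps1, chrX:140456453-140456602, plus strand: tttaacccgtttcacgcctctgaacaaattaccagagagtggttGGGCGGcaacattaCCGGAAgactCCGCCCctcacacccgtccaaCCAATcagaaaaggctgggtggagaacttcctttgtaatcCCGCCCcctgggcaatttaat
Rgs2, chr1:144004150-144004299, minus strand: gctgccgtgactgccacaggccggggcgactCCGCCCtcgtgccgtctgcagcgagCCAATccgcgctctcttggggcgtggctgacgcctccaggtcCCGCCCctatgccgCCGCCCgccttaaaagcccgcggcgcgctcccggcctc
Zscan4d, chr7:11166149-11166298, minus strand: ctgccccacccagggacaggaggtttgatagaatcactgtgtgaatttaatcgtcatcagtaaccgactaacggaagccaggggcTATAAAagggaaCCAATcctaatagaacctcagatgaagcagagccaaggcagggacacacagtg
Zfp352, chr4:90218670-90218819, plus strand: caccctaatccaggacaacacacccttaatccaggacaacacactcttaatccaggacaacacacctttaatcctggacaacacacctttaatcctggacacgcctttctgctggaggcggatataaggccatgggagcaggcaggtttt
Oog4, chr4:143450325-143450474, minus strand: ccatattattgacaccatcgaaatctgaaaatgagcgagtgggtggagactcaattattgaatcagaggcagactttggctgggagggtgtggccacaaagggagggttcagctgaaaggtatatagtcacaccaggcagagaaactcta
Nlrp4f, chr13:65205717-65205866, minus strand: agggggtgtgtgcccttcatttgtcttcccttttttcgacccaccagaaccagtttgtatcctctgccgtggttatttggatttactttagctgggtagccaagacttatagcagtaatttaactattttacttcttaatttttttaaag
Bmp15, chrX:6320725-6320874, minus strand: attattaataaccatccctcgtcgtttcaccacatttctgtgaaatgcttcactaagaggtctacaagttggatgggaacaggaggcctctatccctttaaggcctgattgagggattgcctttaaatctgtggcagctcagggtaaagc

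The Rps2 stretch held 18 CG dinucleotides and 66.0% G or C, with a TATA box on the opposite strand, an ETS site and a GC box. The Rps3 stretch held 6 CG dinucleotides and 1 ETS site. In the Gabpa stretch 1 ETS site was present, the motif that its own protein binds. The Prps1 stretch held 3 GC boxes, a CCAAT box and an ETS site. Zscan4d had a TATA box, a CCAAT box and 3 CG dinucleotides. Oog4, Nlrp4f, Bmp15 and Zfp352 had none of the 4 motifs in these windows and 2 CG dinucleotides each. The Rgs2 stretch had 20 CG dinucleotides, 3 GC boxes, a CCAAT box and 74.7% G or C. Among promoters read but not printed, Dnajb4 had 20 CG dinucleotides and 2 GC boxes, the oocyte gene Btg4 had 1 CG dinucleotide and a CCAAT box, and Rpl11 had 6 CG dinucleotides and none of the 4 motifs.

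Of the 7291 genes, 2456 were higher at 2-cell, 33.7% of all genes kept, and 2648 were lower, 36.3%. The other 2187 (30.0%) differed by less than 1. The median difference was -0.14, and the middle 50% of genes lay between -1.64 and 1.74. The largest differences were mostly upward: 390 genes were higher by 4 or more and 113 were lower by 4 or more, and at 6 or more the counts were 56 and 2. Higher genes made up 48.1% of all calls. The zygote column summed to 315146 FPKM and the 2-cell column to 234738 FPKM. When both columns were scaled to the same total, the share of higher calls was 58.9% and the median of genes kept shifted by 0.55. The filter followed that scaling and kept 7356 genes, so the 2 medians are over different genes. Just inside the threshold lay Pigm at 1.0003 and Nup188 at -1.0002, and just outside it Psmd11 at 0.9996 and Usp21 at -0.9994.

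**Figure D1:**
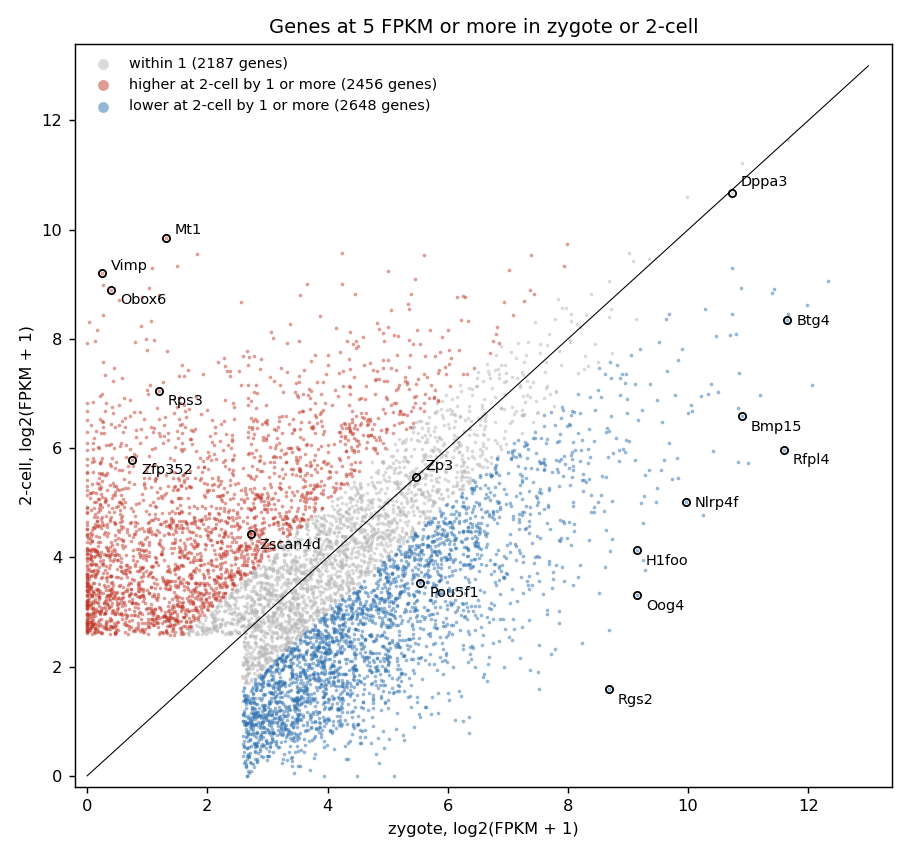
Each point is 1 of the 7291 genes kept, with its zygote level on the x axis and its 2-cell level on the y axis, both as log2(FPKM + 1). The line marks equal values, red points are the 2456 genes higher and blue points the 2648 genes lower at 2-cell, and circled genes are named in the text. Red points crowd the left edge, while blue points seldom reach the bottom edge.

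The higher and lower genes started and ended at different levels. Among the higher genes 830 (33.8%) were under 1 FPKM in the zygote, 896 were at 1 to 5 FPKM and 730 were at 5 FPKM or more, and their median was 2.08 FPKM in the zygote and 20.9 FPKM at 2-cell. Among the lower genes only 312 (11.8%) were under 1 FPKM at 2-cell, and their median was 23.5 FPKM in the zygote and 4.54 FPKM at 2-cell. Most genes of the second group were therefore still detected at 2-cell, and 1246 were still at 5 FPKM or more. The higher genes held 5.16% of all FPKM in the zygote and 49.5% at 2-cell, the lower genes 69.4% and 16.1%, and the genes within 1 held 23.1% and 31.0%. The 10 most abundant genes took 10.8% of the zygote total and 5.76% of the 2-cell total.

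The most abundant genes of the zygote column were products of the oocyte, apart from Snora47, a small nucleolar RNA gene at 5131 FPKM in zygote and 534 FPKM at 2-cell. They are named here by rank, after their values were seen. Bcl2l10, a Bcl2 family gene of the oocyte, had 4276 FPKM in zygote and 142 FPKM at 2-cell. Zbed3, linked to the subcortical maternal complex, had 4047 and 394 FPKM, and Btg4, an adaptor that brings the deadenylase to maternal messengers, 3213 and 325 FPKM. At 2-cell the leading genes were Omt2b (3255 FPKM in zygote, 3182 FPKM at 2-cell), Omt2a (1905 and 2387 FPKM) and Dppa3 (1699 and 1628 FPKM), which were already abundant in the zygote. Dppa3 encodes Stella, a maternal protein that protects DNA methylation, and its difference was 1.31 with quantile normalization. They were followed by Cks2, a partner of cyclin-dependent kinases (1005 and 1540 FPKM), and by Mt1 (1.47 and 925 FPKM). The top of the 2-cell list thus held both genes already abundant in the zygote and genes near the lower limit there.

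Replicate spread for these stages could not be measured, so the 4 control-injected 8-cell libraries of the series, which have a column each in another deposited table, gave the only yardstick. Put through the same filter and threshold, the 6 pairs of those libraries had 7.8% to 12.2% of genes past 1 and 0.91% to 1.66% past 2. Between zygote and 2-cell, 70.0% of genes were past 1 and 40.9% past 2. The median absolute difference was 0.32 to 0.39 in the library pairs and 1.68 between the stages. These libraries are of another stage, were injected and cultured, and stand for single samples, so the yardstick bears on the size of typical noise and not on any single gene.

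The labels were checked against stage markers. The oocyte markers Gdf9, Bmp15, Zp1, Zp2, Mos, Nlrp5, Ooep, Btg4 and Zar1 were all lower at 2-cell, and Zp3 was level at 43.5 and 43.4 FPKM. The 2-cell markers Zscan4c, Zscan4d, Zscan4f, Zfp352, Tcstv1, Tcstv3, Tdpoz1 and Tdpoz4 were all higher at 2-cell. On the wider list of 2-cell-stage genes 32 of 37 kept were higher and 4 lower, the lowest at -4.78. Zscan4c, Zscan4d, Zscan4f and Zfp352 had higher levels still in early 2-cell, so they do not set the 2-cell label apart from that stage. Markers of cells that could have come along were nearly absent: 2 of 22 cumulus and granulosa cell markers were kept, with 11 at 0 in zygote and 10 at 0 at 2-cell, and their summed level was 0.00541% of the zygote total and 0.0110% of the 2-cell total. The kept ones were Cyp19a1 (12.8 and 0.323 FPKM) and Amhr2 (listed at 0 and 23.0 FPKM), which kept 46.1 FPKM in 4-cell embryos. Of 20 sperm and spermatid markers 2 were kept, and their list summed to 0.0126% and 0.0104%. Ldhc was higher at 2-cell (0.907 and 9.48 FPKM, 2.46) and Odf2 lower (-1.27, or -0.86 with columns scaled to the same total). Ribosomal RNA (Rn45s) was listed at 0 in both columns, as in 5 of the 8 stage columns, so the main comparison lies within columns of that kind.

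Among named genes Vimp had the largest positive difference, from 0.186 FPKM in zygote to 587 FPKM at 2-cell (8.95). Mt1 and Mt2, the metallothioneins that bind zinc and copper, went from 1.47 to 925 FPKM (8.55) and from 1.12 to 626 FPKM (8.21). Both were still at 881 FPKM or more in 4-cell embryos, whereas Mt4 was lower at 2-cell, from 19.0 to 3.40 FPKM (-2.18). The metallothionein list therefore had members in both directions. Obox6, a homeobox gene of the early embryo, went from 0.322 to 478 FPKM (8.50).

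Tomm5, a small subunit of the mitochondrial outer membrane import pore, went from 0.447 to 419 FPKM (8.18). The lysosomal proteases Ctsc and Ctsl went from 0.118 to 284 FPKM (7.99) and from 1.04 to 485 FPKM (7.89). Prps1, which makes phosphoribosyl pyrophosphate for nucleotide synthesis, went from 1.83 to 641 FPKM (7.83), and Gcsh, a carrier protein of the glycine cleavage system, from 2.57 to 754 FPKM (7.72). Alppl2, an alkaline phosphatase, had 1.29 and 446 FPKM (7.61) and had 2350 FPKM in 4-cell embryos. The other named genes among the 15 largest were Crxos (7.86), the GTPase gene Rab20 (7.84), Cdk2ap1 (7.35), the receptor gene Timd2 (7.31) and Nme2, a nucleoside diphosphate kinase (7.27). All 15 were under 3 FPKM in the zygote and at 189 FPKM or more at 2-cell. Nme2 has 4 near-identical copies, Crxos 2, and Obox6, Prps1 and Cdk2ap1 have 1 each, so reads of these genes could have been assigned to another copy.

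Among the largest negative differences Rgs2 stood first, from 410 FPKM in zygote to 2.00 FPKM at 2-cell (-7.10), followed by the DnaJ co-chaperone gene Dnajb4 (408 and 5.34 FPKM, -6.01). Oog4, of the Prame-like family, had 569 and 8.92 FPKM (-5.84), and Rfpl4, an oocyte RING finger gene, 3091 and 61.7 FPKM (-5.62). Txnip, a thioredoxin-binding protein that limits glucose uptake, had 365 and 9.23 FPKM (-5.16). Oas1e (-5.30), the receptor gene Gpr1 (-5.61), the DNA glycosylase gene Neil3 (-5.45), the zinc finger gene Zfp735 (-5.25) and Dph6, of diphthamide synthesis (-5.13), were also among the 15, together with C86695 (-5.56). Txnip was already at 28.9 FPKM in early 2-cell embryos, while Rfpl4 still stood at 2864 FPKM there. Glrx, glutaredoxin, had 209 and 3.71 FPKM (-5.48) and returned to 470 FPKM in the inner cell mass (ICM).

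Cytosolic ribosomal protein genes were the largest block of higher genes. Of 80 genes kept, 76 were higher at 2-cell and 0 were lower, against 33.7% higher over all genes. Their median difference was 3.69, with a range from 0.28 to 5.86. They held 0.287% of all FPKM in the zygote and 4.05% at 2-cell, and their median level was 4.89 FPKM in zygote, 75.5 FPKM at 2-cell, 224 FPKM at 4-cell and 297 FPKM at 8-cell. Rps3 went from 1.29 to 132 FPKM (5.86), Rpl9 from 0.547 to 82.8 FPKM (5.76) and Rps26 from 3.85 to 200 FPKM (5.37). The 4 genes within 1 were Rps27l (264 and 320 FPKM), Rpl15 (21.7 and 27.6 FPKM), Rpl26 and Rps15a. A near-identical copy, usually a processed pseudogene, was found for most of these genes, 76 of 80, so their single values are uncertain.

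Genes that build ribosomes were mostly higher too. Of 102 genes for RNA polymerase I and ribosome biogenesis, 71 were higher and 5 lower (median 1.62). Nop16, a nucleolar protein, had 0.0885 FPKM in zygote and 71.9 FPKM at 2-cell (6.07). Polr1c, a subunit shared by RNA polymerases I and III, had 2.82 and 162 FPKM (5.41), and Nol11, of the small subunit processome, 0.392 and 52.5 FPKM (5.26). Nop58, a core protein of box C/D small nucleolar particles, was present in the zygote at 40.8 FPKM and had 101 FPKM at 2-cell (1.28). Ncl, nucleolin, differed by only 0.20. One value in this list is doubtful: Nolc1 was listed at 0 at 2-cell and at 8-cell but at 33.5 FPKM in zygote and 213 FPKM at 4-cell. The 8 Snhg genes kept, which host small nucleolar RNAs in their introns and were grouped after their values were seen, were all higher (median 2.47), with Snhg3 at 0.447 and 110 FPKM (6.27). Of these, Snhg9 is also doubtful, listed at 0 in zygote but at 256 FPKM in MII oocytes.

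Genes of the translation apparatus followed in smaller numbers. Of 51 initiation and elongation factors 27 were higher and 7 lower (median 1.05, or 0.89 with a pseudocount of 5 FPKM). Eif1a, an initiation factor gene long used as a mark of 2-cell transcription, went from 0.601 to 37.7 FPKM (4.59), and Eif3g from 3.89 to 117 FPKM (4.59). Of the factors that were lower, Gspt2, a release factor, had 56.5 and 1.87 FPKM (-4.32) and the oocyte cap-binding gene Eif4e1b 77.5 and 9.13 FPKM (-2.95). Aminoacyl-tRNA synthetases were divided, with 9 of 26 higher (34.6%, against 33.7% of all genes kept), 7 lower (26.9%, against 36.3%) and a median of 0.20. That list and those of metallothioneins, lysosomal hydrolases, mitochondrial import and the translocon were written after values had been seen.

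Mitochondrial genes encoded in the nucleus were mostly higher. Of 75 respiratory chain and ATP synthase genes 49 were higher and 7 lower (median 1.71), and of 28 import genes 19 and 2 (median 2.13, or 1.41 with a pseudocount of 5 FPKM). Mitochondrial ribosomal proteins gave 38 higher and 13 lower of 71 (median 1.25, or 0.82 with a pseudocount of 5 FPKM). Ndufc1, of complex I, had 0.756 and 57.1 FPKM (5.05), Atp5g1, of ATP synthase, 5.48 and 202 FPKM (4.97), and Timm10, an import chaperone of the intermembrane space, 1.25 and 105 FPKM (5.56). Of complex II, 3 subunits went the other way, and Sdhb did not (3.02 and 12.1 FPKM, 1.71): Sdha had 57.4 and 4.80 FPKM (-3.33), Sdhc 48.6 and 14.4 FPKM (-1.69) and Sdhd 46.0 and 12.3 FPKM (-1.83). Lysosomal genes resembled the first group, with 20 of 25 higher and 4 lower (median 2.36, but 1.09 with a pseudocount of 5 FPKM and 1.32 with a filter at 1 FPKM), among them Cd63, a membrane protein of late endosomes (0.738 and 244 FPKM, 7.14).

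**Figure D2:**
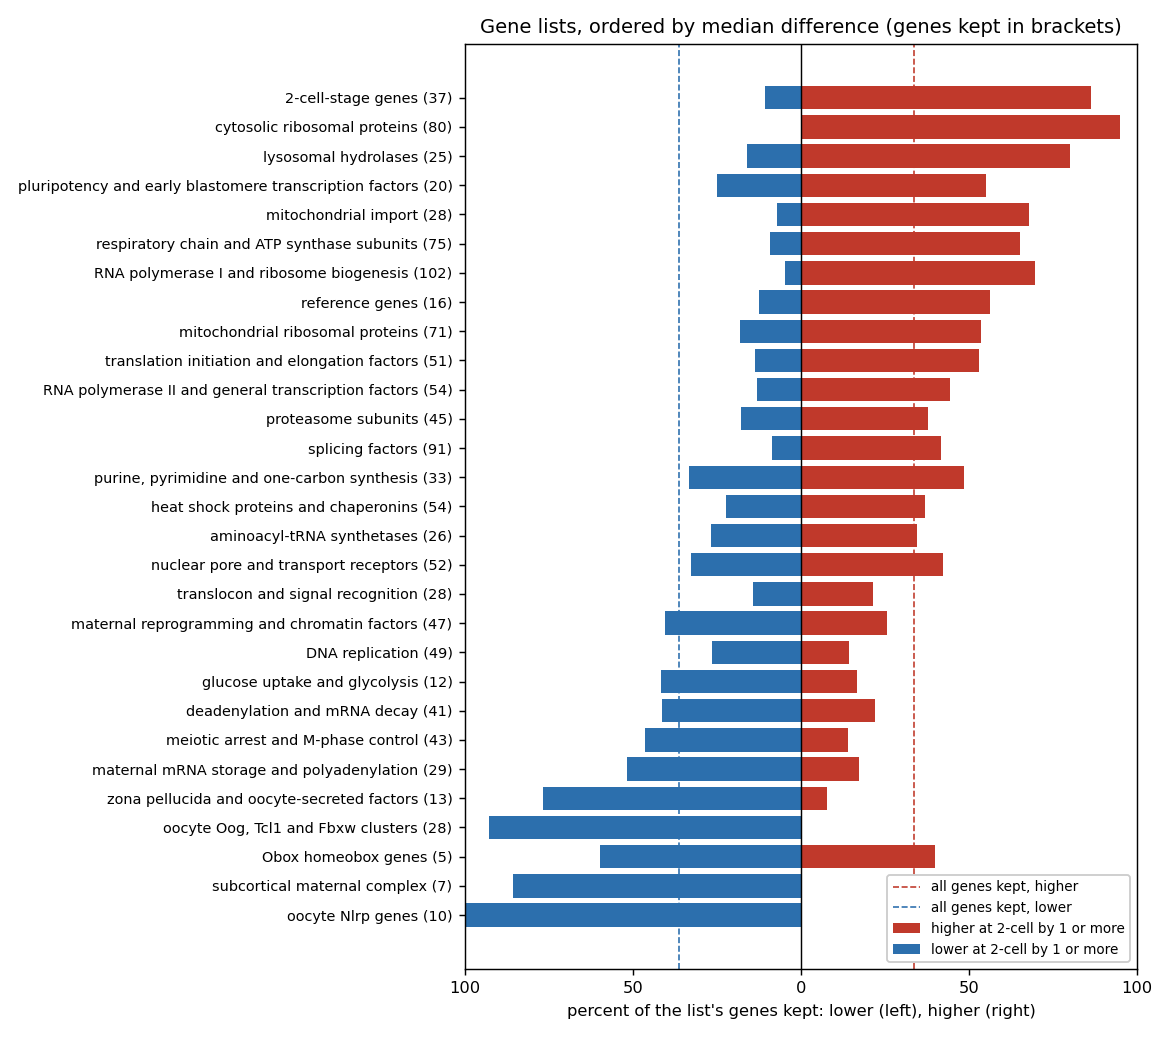
Bars to the right give the percent of each drawn list's genes kept that were higher at 2-cell by 1 or more, bars to the left the percent lower, with dashed lines at 33.7% and 36.3% for all genes kept. The lists of blastocyst lineage genes, metallothioneins, cumulus and granulosa cell markers, and sperm and spermatid markers are not drawn. Lists are ordered by median difference and the number of genes kept is in brackets; 76 of 80 cytosolic ribosomal protein genes lie to the right and all 10 oocyte Nlrp genes to the left.

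Nuclear machinery leaned upward with many genes within 1. Of 54 RNA polymerase II and general transcription factor genes, 24 were higher and 7 lower (median 0.85, or 1.20 with columns scaled to the same total). Polr2h, a subunit shared by the 3 nuclear polymerases, had 4.20 and 169 FPKM (5.03), while Gtf2b, the initiation factor TFIIB, had 303 and 36.0 FPKM (-3.04). Tbpl2, the oocyte paralogue of the TATA-binding protein, had 6.45 and 0.458 FPKM (-2.35), and Tbp itself 52.8 and 60.7 FPKM (0.20). Of 91 splicing genes 38 were higher (41.8%) and 8 lower (8.79%), with a median of 0.61. Snrpb, a core spliceosomal protein, had 1.45 and 93.5 FPKM (5.27) and Prpf6 53.0 and 4.32 FPKM (-3.34).

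Housekeeping machines of protein turnover and transport were less one-sided. Their shares of higher genes ran from 21.4% to 42.3%, against 33.7% of all genes kept, of which 36.3% were lower. Proteasome genes gave 17 higher (37.8%) and 8 lower (17.8%) of 45. Their median was 0.68, or 1.10 with columns scaled to the same total. Psmb5, a catalytic subunit, had 2.24 and 104 FPKM (5.02). Heat shock proteins and chaperonins gave 20 higher (37.0%) and 12 lower (22.2%) of 54 (median 0.30), and Hspa8 had 34.1 and 133 FPKM (1.93). The inducible heat shock genes Hspa1a (0.310 and 3.34 FPKM) and Hspa1b (0.309 and 0.788 FPKM), known for an early burst in the mouse embryo, did not reach 5 FPKM in either column. Nuclear pore and transport genes were near balance with 22 higher (42.3%) and 17 lower (32.7%) of 52 (median 0.05). Translocon genes gave 6 higher (21.4%) and 4 lower (14.3%) of 28 (median -0.12). Of 33 genes for purine, pyrimidine and one-carbon synthesis 16 were higher (48.5%) and 11 lower (33.3%), with a median of 0.53. Ppat, the first enzyme of purine synthesis, had 0.491 and 89.6 FPKM (5.92).

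Among genes known for the 2-cell stage 32 of 37 kept were higher and 4 lower (median 3.71, or 2.25 with a pseudocount of 5 FPKM and 5.88 with one of 0.1 FPKM). Tcstv3 had 48.2 FPKM in zygote and 206 FPKM at 2-cell (2.08), and Tcstv1 12.1 and 120 FPKM (3.22). Trim43b, of a tripartite motif family, had 0.0654 and 114 FPKM (6.75). Zfp352 had 0.676 and 54.3 FPKM (5.04). All 5 Tdpoz genes were higher, from 2.76 (Tdpoz3) to 5.54 (Tdpoz5), and Tdpoz2, Tdpoz3 and Tdpoz4 were listed at 0 in zygote. Dux, a homeobox activator of this programme, was lower, at 5.15 and 0.203 FPKM (-2.35). A near-identical copy was found for 22 of the 37 genes.

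The Zscan4 genes were past their peak in the 2-cell column. Zscan4d had 5.60 FPKM in zygote, 87.5 FPKM in early 2-cell, 20.5 FPKM at 2-cell and 2.16 FPKM at 4-cell, and Zscan4f 1.74, 136, 27.0 and 10.7 FPKM. Zscan4c had 2.09, 87.0, 15.4 and 4.14 FPKM. All 3 have 8 near-identical copies, so the split of reads among them is uncertain. Zfp352 was also highest in early 2-cell, at 78.0 FPKM, whereas Trim43b had 4.07 FPKM in early 2-cell and 415 FPKM at 4-cell. The early 2-cell column listed Rn45s at 6829 FPKM and the submitters' processing notes name no expression tool for it, so levels set across it are approximate.

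Members of the Obox homeobox family went in opposite directions. Obox1 (2048 and 51.8 FPKM, -5.28), Obox2 (1221 and 26.5 FPKM, -5.47) and Obox5 (1288 and 126 FPKM, -3.34) were lower at 2-cell. Obox3 (0.210 and 76.5 FPKM, 6.00) and Obox6 were higher. Obox3 was down to 5.54 FPKM at 4-cell while Obox6 stood at 954 FPKM there. Obox3 has 5 near-identical copies and Obox2 has 2.

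Other pairs of related genes, picked out after their values were seen, also had members on opposite sides. Pabpc1l, the oocyte poly(A)-binding protein, had 42.5 and 0.867 FPKM (-4.54) and Pabpc1, its somatic relative, 0.376 and 49.0 FPKM (5.18). Kpna7, an importin alpha of the oocyte, had 162 and 6.24 FPKM (-4.49) and Kpna1 0.186 and 45.7 FPKM (5.30). Tet3, the oxidase of methylated cytosine in the zygote, had 47.7 and 9.18 FPKM (-2.26) and Tet1 0.210 and 6.83 FPKM (2.69). Aurkc, the meiotic Aurora kinase, had 108 and 13.7 FPKM (-2.89) and Aurkb 10.3 and 36.2 FPKM (1.72). Gspt1, the relative of Gspt2, had 3.70 and 8.65 FPKM (1.04), so each pair had 1 member lower and 1 member higher at 2-cell.

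Transcription factors of early blastomeres and pluripotency were mostly higher, 11 of 20 kept, with 5 lower (median 2.28, but 1.11 with a pseudocount of 5 FPKM and 0.21 when only genes at 10 FPKM or more were kept). Gabpa had 0.130 and 63.6 FPKM (5.84), Dppa4 3.54 and 190 FPKM (5.40) and Dppa5a 43.0 and 547 FPKM (3.64), the last with 6 near-identical copies. Nr5a2, an orphan nuclear receptor, had 3.59 and 26.9 FPKM (2.60), and Tead4, needed for the trophectoderm, 0.0163 and 6.45 FPKM (2.87). Klf17 was lower, at 452 and 183 FPKM (-1.30), but -0.88 with columns scaled to the same total and -0.74 with quantile normalization. Pou5f1, which encodes OCT4, had 45.7 FPKM in zygote, 10.6 FPKM at 2-cell, 16.5 FPKM at 4-cell, 64.4 FPKM at 8-cell and 149 FPKM in ICM, so the 2-cell column was its lowest among these 5 stages. Of 26 blastocyst lineage genes 6 were kept, 3 higher and 3 lower. Their median was 0.04, but -1.36 with a filter at 1 FPKM and -2.51 with one at 10 FPKM. Gata3 (10.2 and 0.452 FPKM, -2.95) and Dab2 (35.4 and 4.15 FPKM, -2.82) were lower. Cldn6 (0.0696 and 46.5 FPKM, 5.47) and Fgf4 (0.0158 and 7.76 FPKM, 3.11) were higher.

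The oocyte programme was lower almost throughout. All 10 oocyte Nlrp genes were lower (median -4.12), against 36.3% of all genes; Nlrp9b had 220 and 3.98 FPKM (-5.47) and Nlrp4f 993 and 31.5 FPKM (-4.94). Of 28 genes in the Oog, Tcl1 and Fbxw clusters 26 were lower and 0 higher (median -3.14), and the 2 within 1 were Omt2a and Omt2b. Fbxw22 had 272 and 10.3 FPKM (-4.60), and Tcl1 3224 and 351 FPKM (-3.20). The Oas1 family, grouped after its values were seen, had 6 of 6 genes lower (median -4.50), led in level by Oas1d at 1371 and 60.9 FPKM (-4.47).

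Of 7 genes of the subcortical maternal complex, a protein lattice under the egg's membrane needed for cleavage, 6 were lower and 0 higher (median -3.36). Ooep had 594 and 30.8 FPKM (-4.23), Nlrp5 205 and 14.3 FPKM (-3.75) and Padi6 274 and 23.4 FPKM (-3.49). Khdc3 was the exception at 5.99 and 4.37 FPKM (-0.38). Of 13 zona pellucida and oocyte-secreted genes 10 were lower and 1 higher (median -2.42). Bmp15, an oocyte growth factor, had 1907 and 95.1 FPKM (-4.31), its relative Gdf9 396 and 43.3 FPKM (-3.16), and Izumo1r, the sperm receptor Juno, 134 and 4.59 FPKM (-4.60). Zp1 (-1.43) and Zp2 (-1.88) were lower while Zp3 was level, and Cd9, a membrane protein of sperm fusion, was higher at 35.5 and 97.9 FPKM (1.44).

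Factors that handle maternal messengers had members in both directions. Of 41 deadenylation and decay genes 17 were lower (41.5%, against 36.3% of all genes) and 9 higher (median -0.81, or 0.26 with columns scaled to the same total), including Pabpn1l (29.6 and 0.433 FPKM, -4.42), the decapping gene Dcp1a (126 and 12.0 FPKM, -3.28) and Cnot7, a deadenylase (505 and 99.2 FPKM, -2.33). Ythdf2, a reader of methylated adenosine that promotes decay, was higher at 18.7 and 81.5 FPKM (2.07), while Ythdf3 was lower at 86.4 and 17.7 FPKM (-2.23). Of 29 storage and polyadenylation genes 15 were lower (51.7%) and 5 higher (median -1.05). Zar1, which stores maternal messengers, had 147 and 3.44 FPKM (-5.06), Dazl 423 and 19.1 FPKM (-4.40) and Cpeb1, the cytoplasmic polyadenylation factor, 70.4 and 7.20 FPKM (-3.12). Ybx2, another storage protein, differed by -0.36. The median of the storage list was between -0.62 and -0.95 under 6 other settings, so it did not stay past 1.

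Meiosis and cell cycle genes lay on both sides. Of 43 genes of meiotic arrest and M phase 20 were lower (46.5%, against 36.3% of all genes kept) and 6 higher (14.0%, against 33.7%). Their median was -0.85. Mos, the kinase of egg arrest, had 436 FPKM in MII oocytes, 10.7 FPKM in zygote and 2.53 FPKM at 2-cell (-1.73). Wee2, the oocyte inhibitor of cyclin-dependent kinase, had 517 and 68.8 FPKM (-2.89), and Plat, a protease translated at maturation, 63.2 and 4.94 FPKM (-3.43). On the other side Ccne1, cyclin E1, had 0.360 and 63.0 FPKM (5.56), Cdc25c, an activator of mitotic entry, 1.19 and 41.4 FPKM (4.28), and Cdk1 24.0 and 140 FPKM (2.49). Ccna2 differed by 0.90, or by 1.32 with columns scaled to the same total. Ccne2 was listed at 0 in the zygote but stood at 27.3 FPKM in MII oocytes and 25.2 FPKM in early 2-cell, so that 0 may be a failed estimate. DNA replication genes gave 13 lower (26.5%) and 7 higher (14.3%) of 49 (median -0.34), both below the shares of all genes kept. Among them Orc5 had 253 and 19.4 FPKM (-3.64) and Gmnn, geminin, 165 and 474 FPKM (1.51).

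Chromatin factors had members in both directions, 19 lower (40.4%, against 36.3% of all genes kept) and 12 higher (25.5%, against 33.7%) of 47 (median -0.34). H1foo, the oocyte linker histone, had 567 and 16.5 FPKM (-5.02), Zfp57, which guards imprints, 1826 and 105 FPKM (-4.10), and Dnmt1, the maintenance methyltransferase, 59.3 and 5.72 FPKM (-3.17). Npm2, a chaperone that remodels sperm chromatin, had 321 and 52.0 FPKM (-2.60). Cbx3, heterochromatin protein 1 gamma, had 2.07 and 158 FPKM (5.69), Kdm5b, a histone demethylase, 1.30 and 45.4 FPKM (4.33) and Hdac1 1.73 and 46.2 FPKM (4.11). The medians of this list and of the replication, decay and translocon lists took the other sign when the columns were scaled to the same total.

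Metabolic and reference genes lay on both sides. Of 12 glucose uptake and glycolysis genes 5 were lower (41.7%, against 36.3% of all genes kept) and 2 higher (16.7%, against 33.7%). Their median was -0.71. Ldhb, lactate dehydrogenase B, had 1062 and 110 FPKM (-3.26), G6pdx, which opens the pentose phosphate pathway, 324 and 19.0 FPKM (-4.02), and Pgam1 5.61 and 66.2 FPKM (3.35). Of 16 genes often used as references 9 were higher and 2 lower (median 1.25, or 2.21 with quantile normalization). H2afz (9.35 and 308 FPKM, 4.90) and Ppia (13.6 and 342 FPKM, 4.55) were among those higher and Ywhaz (406 and 56.0 FPKM, -2.83) was lower. Actb (28.2 and 32.0 FPKM), Tbp, Ubb (515 and 762 FPKM) and Gapdh (5.34 and 5.57 FPKM) were within 1. Gapdh has 59 near-identical copies and Ppia 18.

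The calls were then read in columns that had no part in choosing them. From MII oocyte to 4-cell, 35.4% of all genes were higher and 41.3% lower. Of 2455 higher genes with a value, 2094 (85.3%) were higher in 4-cell than in MII oocyte and 25 (1.0%) lower, with a median of 2.98. Of the 2648 lower genes, 2253 (85.1%) were lower in 4-cell and 51 (1.9%) higher, with a median of -2.76. From MII oocyte to early 2-cell, 15.2% of all genes were higher and 20.2% lower. Of the higher genes 540 (22.0%) were higher and 258 (10.5%) lower. Of the lower genes 713 (26.9%) were lower and 326 (12.3%) higher. The genes within 1 had 11.0% higher and 23.0% lower. The direction seen between zygote and 2-cell was thus shared by 4-cell against MII oocyte for most genes, and by early 2-cell for a minority. In early 2-cell the share of lower genes that were lower was near that of the genes within 1. The MII oocyte column listed Rn45s at 6967 FPKM and the 4-cell column at 0, and the part of this in the counts was not tested.

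**Figure D3:**
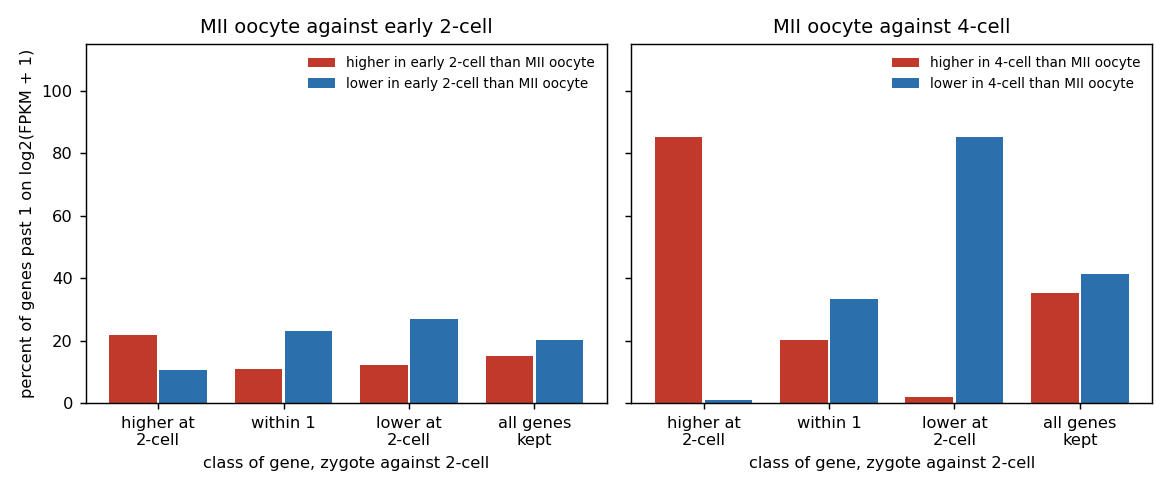
The y axis gives the percent of genes past 1 on the log2(FPKM + 1) scale from MII oocyte to early 2-cell (left) and to 4-cell (right), for the genes higher, within 1 and lower between zygote and 2-cell and for all genes kept. On the right 85.3% of the higher genes were higher and 85.1% of the lower genes were lower. On the left the same shares were 22.0% and 26.9%, and 23.0% of the genes within 1 were lower.

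Most higher genes were still at 5 FPKM or more in later stages. Of 2456, 89.9% were at that level at 4-cell, 85.0% at 8-cell and 72.1% in ICM. The shares of all genes kept were 67.7%, 63.3% and 61.3%. Every higher gene was at that level at 2-cell by the way it was chosen. Among the 5 columns with Rn45s at 0, 670 (27.3%, against 14.2% of all genes kept) had their highest level at 2-cell. Another 753 (30.7%, against 15.3%) were highest at 4-cell, 505 (20.6%, against 11.5%) at 8-cell and 528 (21.5%, against 19.4%) in ICM. A set of 65 (2.65%, against 11.9% of all genes kept) was under 1 FPKM in both 8-cell and ICM, with Zfp352 the most abundant of them at 2-cell and Zscan4d and Zscan4a among them. Of the 2648 lower genes, 2253 (85.1%, against 39.7% of all genes kept) had their highest level in the zygote and 335 (12.7%, against 19.4%) in ICM. The zygote and 2-cell columns also chose these genes, so the shares are a description. At 8-cell or in ICM 384 (14.5%, against 53.6% of all genes kept) were at or above their zygote level. Idh1, the cytosolic isocitrate dehydrogenase, for example, had 23.0 FPKM in zygote, 1.38 FPKM at 2-cell, 69.2 FPKM at 8-cell and 321 FPKM in ICM, and Sdha 57.4, 4.80, 18.6 and 68.2 FPKM.

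**Figure D4:**
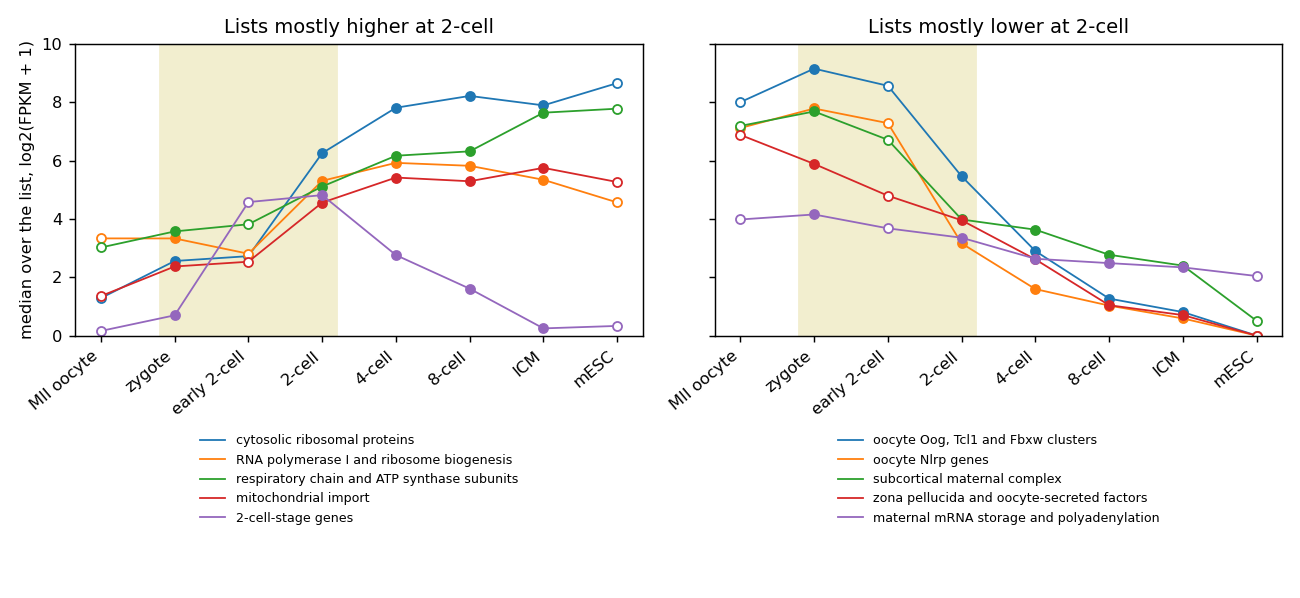
The y axis gives the median over all measured members of a list as log2(FPKM + 1) for the 8 stage columns in order of development, with the span from zygote to 2-cell shaded and open circles for columns with Rn45s above 0. Medians of the ribosomal protein list were 4.89 FPKM in zygote and 75.5 FPKM at 2-cell, while the 2-cell-stage list was highest at 2-cell (27.2 FPKM) and dropped to 5.78 FPKM at 4-cell.

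Gene span, the distance from the first to the last base of the gene on the genome, ran with the direction of the difference. The median was 12874 bases for higher genes, 26219 bases for genes within 1 and 29933 bases for lower genes. When genes were split by span into 4 bins of equal size, in the shortest, up to 9245 bases, 53.5% were higher and 24.2% lower, and in the longest, from 49214 bases, 16.2% were higher and 49.7% lower. Without the cytosolic ribosomal proteins, 51.3% of the shortest bin were higher. Genes higher by 4 or more had a median span of 7598 bases. The 113 genes lower by 4 or more broke the order, with a median of 17473 bases. Coding sequences also differed, with medians of 1038, 1395 and 1365 bases for higher genes, genes within 1 and lower genes. Near-identical copies were found for 18.6% of higher genes, 11.6% of genes within 1 and 8.69% of lower genes.

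Promoter windows of 300 bases, 250 before and 50 after the annotated start, were matched for 5869 of the genes kept. Windows with 10 or more CG dinucleotides made up 86.7% of higher genes, 91.6% of genes within 1 and 75.1% of lower genes. The share was 84.0% of all genes kept with a window, and 43.9% of the 27025 genes with a window, kept or not. It was 44.2% for genes lower by 4 or more, 70.6% for those lower by 2 to 4, and 76.1% for genes higher by 4 or more. A window was matched for only part of each list. Of the 43 lower members of the oocyte lists with a window, 11.6% were this rich in CG, against 98.3% of 59 ribosomal protein genes with a window. The 2-cell-stage list had 32 higher members, and of the 18 with a window 5.56% were this rich. Members without a window were not read. The oocyte and 2-cell-stage genes shown above thus stood for the members with a window in being poor in CG.

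The single motifs differed by group. The ETS site CCGGAA was in 50.8% of ribosomal protein windows, 36.2% of higher, 35.3% of within 1 and 28.2% of lower genes. It was in 33.0% of all genes kept and in 15.2% of all windows, so higher genes were near the share of genes kept. A TATA box was in 8 of the 18 windows read for higher 2-cell-stage genes (44.4%), against 8.82% of higher genes, 7.41% of genes kept and 14.2% of all windows. A CCAAT box was in 61.1% of the 18, against 41.6% of higher genes, 41.6% of genes kept and 37.9% of all windows. The GC box was in 63.2% of higher, 70.0% of within 1, 58.5% of lower and 63.6% of all genes kept, but in 18.6% of the oocyte windows. The site CAAGGTCA, bound by orphan nuclear receptors such as NR5A2, was in 4 of the 18 2-cell-stage windows (22.2%). It was in 1.74% of higher genes, 0.994% of lower genes, 1.12% of genes kept and 1.53% of all windows. The homeobox site GGATTA was in 5 of the 18 (27.8%), 8.15% of higher genes, 5.68% of lower genes, 6.19% of genes kept and 7.16% of all windows. Many 2-cell-stage genes are near-identical copies of each other, so their windows are not independent, and a match is a run of letters and not a bound site. All motifs were searched on both strands, and none of them contains another.

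**Figure D5:**
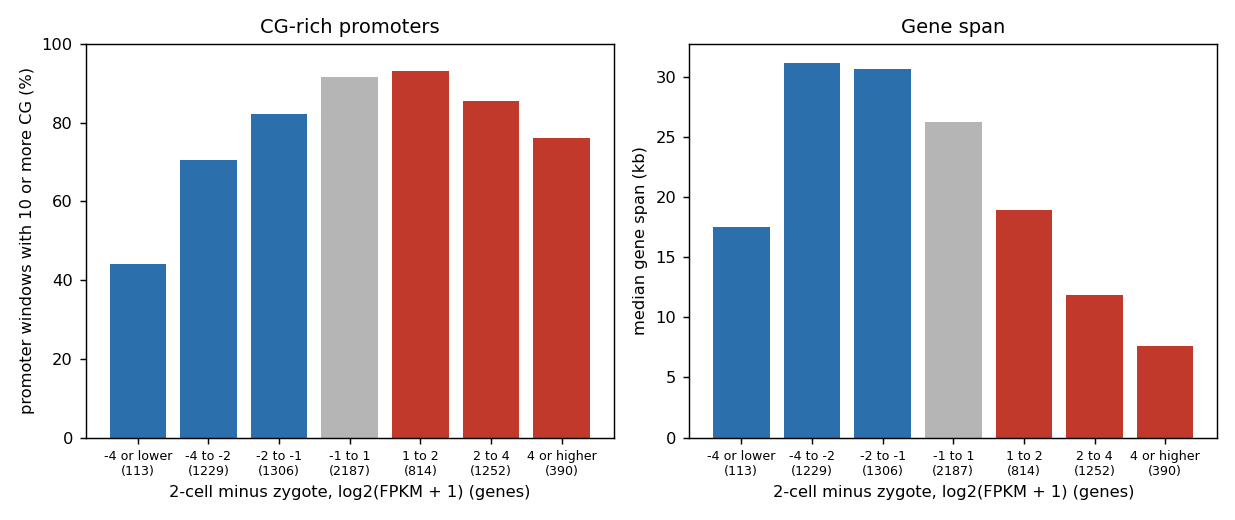
Left, the percent of promoter windows with 10 or more CG dinucleotides, and right, the median gene span in kilobases, for genes binned by the difference between 2-cell and zygote on the log2(FPKM + 1) scale, with the number of genes per bin in brackets. The CG-rich share is highest near the middle (91.6% within 1, 93.1% at 1 to 2) and lowest at the left (44.2%), and the span shortens from 26219 bases within 1 to 7598 bases at the right.

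Neighbouring genes had the same call more often than the counts alone give. The next kept gene along the chromosome had the same call for 40.3% of higher genes, against 33.6% of all placed genes, and for 43.6% of lower genes, against 36.4%. Some runs of neighbours were clusters of related genes. On chromosome 9, 13 neighbouring Fbxw genes were all lower, and on chromosome 3, 9 neighbours that include the 5 Tdpoz genes were all higher. The longest run, 14 lower genes on chromosome 6 from Tmem209 to Cnot4, held unrelated genes, among them Mest, an imprinted gene, at 84.0 and 13.1 FPKM (-2.59). On chromosome 17 a run of 9 higher genes included Rps2, Snhg9, Ndufb10 and Mrps34, and it passes through Snhg9, whose 0 in the zygote is doubtful. The share of higher genes ranged from 25.4% on chromosome 1 to 42.7% on chromosome 17, and that of lower genes from 26.0% on chromosome 11 to 46.5% on chromosome 6.

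Values at 0 limit single folds. In the zygote 98 of the genes kept were listed at 0, and at 2-cell 4 were. Of these, 6 stood at 5 FPKM or more in an adjoining stage: Ints8, Snhg9, Mir8112 and Ccne2 in the zygote and Nolc1 and Snora74a at 2-cell, and no fold is given for them. Small RNA genes, which a polyadenylated library does not capture as such, made up 11 of the genes kept. Steps between the lowest FPKM values put the depth of the 2-cell column at about 1.08 times that of the zygote column. That figure rests on 71 of 1396 low genes. It also treats each column as 1 pool of reads, which is not known, so it cannot decide how depth differed.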

How the data were processed

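Polyadenylated RNA was sequenced from zygotes and 2-cell embryos, with other stages used for comparison. Bases were called with CASAVA 1.8, reads aligned to mm9 with STAR 2.4.0 and expression estimated with Cufflinks 2.2.1, per the submitters' processing notes. For the early 2-cell and MII oocyte samples, the same notes name no expression tool. The authors deposited FPKM values with 1 column per stage. How 2 samples became 1 column is not given in the sources used here, and read totals are not given either. Cufflinks shares reads among similar genes, so genes with copies are uncertain.

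Genes at 5 FPKM or more in zygote or 2-cell were kept, and differences were taken on log2(FPKM + 1), a scale that understates changes of low genes. With 1 value per stage no test was run and no error is given. Relative depth came from 1396 genes between 0 and 0.15 FPKM in both columns, of which 71 lay within 0.01 log2 units of the commonest ratio, so it is approximate. Gene lists were described by their counts and medians over the genes kept. Named genes were, in each direction, the 15 with the greatest difference that carry a proper symbol, up to 4 members of each list with the largest differences, a set of stage landmarks, and further list members as examples. The members and lists were chosen with earlier results of these data known. Near-identical copies (95% identity or more over 50% of the coding sequence) were searched with minimap2 2.31 in GENCODE M21 for 7019 of the genes kept. RefSeq promoter windows on GRCm38.p6 were matched by symbol, and spans by gene came from the RefSeq gene table (7265 genes placed). Alternatives were other pseudocounts, filters, scalings and a stricter threshold; leaving out genes listed at 0 or with copies was chosen after seeing the data. The counting code was tested on simulated data. Python 3.11.15, numpy 2.4.6, pandas 2.3.3 and matplotlib 3.10.9 were used.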

Additional observations from a re-analysis of the deposited data

How the results depend on the processing

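No paired analysis was possible because the replicates of a stage share 1 deposited column. For the same reason no replicate could be left out. At a threshold of 2 in place of 1, the count of higher genes was 1642 and that of lower genes 1342. The fewer calls follow from the threshold itself. Under the other 11 alternatives both counts stayed within 1.5 times the main ones. Columns scaled to the same total gave 2979 higher and 2076 lower, so the balance turned toward higher genes. Higher genes ranged from 1850 (filter at 10 FPKM) to 3523 (filter at 1 FPKM or none), and lower genes from 2070 (pseudocount of 5 FPKM) to 3498 (filter at 1 FPKM or none). Of 33 list medians and 170 named differences, 0 of those past 1 changed sign under any alternative run. Some medians within 1 did change sign. With columns scaled to the same total, DNA replication (-0.34) had 0.06 and deadenylation and decay (-0.81) had 0.26. Under the same scaling chromatin factors (-0.34) had 0.11 and translocon genes (-0.12) had 0.36. Lists with few genes kept moved further. Cumulus and granulosa cell markers (0.60) had -3.39 without genes listed at 0. With a filter at 10 FPKM, sperm and spermatid markers (0.60) had -1.27 and blastocyst lineage genes (0.04) -2.51. The median of the storage and polyadenylation list (-1.05) was -0.89 with a pseudocount of 5 FPKM, -0.86 with a filter at 1 FPKM, -0.81 with no filter, -0.62 with columns scaled to the same total, -0.90 with median scaling and -0.95 without genes with copies. The mitochondrial ribosomal protein median (1.25) was 0.82 and the translation factor median (1.05) 0.89 with a pseudocount of 5 FPKM. The pluripotency median (2.28) was 0.21 with a filter at 10 FPKM and 0.64 with none. Lysosomal hydrolases (2.36) had 1.04 with no filter and metallothioneins (8.21) 4.10. Named differences that crossed 1 were those of Klf17, Odf2, Ccna2, Dppa3, Hspa1a and Hspa1b, at most 3 in any alternative. The cause of these shifts was not tested. With 1 value per stage and no read totals, small differences and levels near 1 FPKM cannot be ranked.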

Other observations

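Gene families were grouped by symbol after their values were seen, and are set beside 33.7% higher and 36.3% lower over all genes kept. Of 140 Zfp genes, most of which encode zinc finger proteins, 39 were higher and 67 lower at 2-cell (median -0.86). Of 8 Pramel and Pramef genes, 5 were higher and 2 lower (median 4.03). Slc transporters (32 higher and 42 lower of 97), Rab GTPases (12 and 16 of 41) and Tmem genes (30 and 37 of 94) were near those shares. Of 18 kinesin genes, 5 were higher and 3 lower (median -0.14).

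A run of 10 neighbouring higher genes on chromosome 17, in the major histocompatibility region, included the class I genes H2-Q6 (0.0890 FPKM in zygote and 23.4 FPKM at 2-cell), H2-Q7 (0.0561 and 18.7 FPKM) and H2-Q10 (0.0358 and 14.7 FPKM). H2-Q9 had 29.2 FPKM at 2-cell, 67.2 FPKM at 4-cell and 34.6 FPKM at 8-cell. B2m, the light chain shared by class I molecules, had 7.08 FPKM in zygote and 75.1 FPKM at 2-cell (3.23). A near-identical copy was found for H2-Q7.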
